A study of Mus musculus with 4 samples.

Results

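Myc, its partner genes and the ribosome biogenesis machinery were followed in primary mouse hematopoietic stem and progenitor cells (HSPCs) that had lost Chaf1b, a subunit of the histone chaperone CAF-1. The members are a list of 40 genes chosen by name, of which 39 were matched by symbol to an Ensembl identifier among the 43629 counted in every library. Noc2l was not matched and is not analysed here. The cells were CD117+ HSPCs of C57Bl/6 mice, and all 4 libraries came from mice with the Chaf1b (fl/fl) genotype, kept in SCF (50 ng/mL), IL6 (20 ng/mL), IL3 (10 ng/mL) and LDL per the labels. The 2 control libraries received the empty retroviral vector MIGR1 by spinfection, and the 2 Chaf1b (-/-) libraries received MIGR1-Cre, a retroviral Cre recombinase whose action was not restricted to a cell type. Cre expression and loss of Chaf1b thus went together and cannot be told apart here. eGFP-positive cells were sorted and total RNA was sequenced after 48 h. The labels do not say whether libraries of a group came from separate animals or cultures, nor give the age or sex of the mice, so the tests measure only the spread between these libraries.

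MYC is a transcription factor that binds DNA as a heterodimer with MAX, preferentially at the E-box CACGTG, and drives cell growth in large part through genes for ribosome production. Ribosome assembly starts in the nucleolus, where RNA polymerase I transcribes the ribosomal RNA precursor. Small nucleolar ribonucleoproteins (snoRNPs) then modify this precursor, and separate sets of assembly factors cleave it and fold it into the small (40S) and the large (60S) subunit. Cycling progenitors have a high demand for ribosomes, and MXD1, which competes with MYC for MAX, is known from maturing myeloid cells.

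Counts on genes numbered between 18468637 and 25409926 per library. Chaf1b itself, the targeted gene, had 80.3 and 57.9 CPM (counts scaled to the total on genes, as counts-per-million) in the control libraries and 16.1 and 17.9 after deletion. The HSPC markers Kit, Cd34, Gata2, Myb, Hoxa9, Meis1 and Ptprc were counted in every library, with summed levels of 1575 and 1740 CPM in the controls and 1456 and 1734 CPM after deletion. Their log2 fold changes between Chaf1b-deleted and control libraries ranged from -0.59 to 0.57, with 4 below 0 and 3 above. Chaf1b-deleted replicate 1 stood apart in Xist (336 CPM, against 1.14 to 1.30 elsewhere) and in 10 interferon-stimulated genes, which summed to 1300 CPM there and to between 99.1 and 140 CPM in the other libraries. Control replicate 1 stood apart in the share of the 892 olfactory receptor genes, silent in blood, that had a count (40.6%, against 3.92% to 12.4%). Medians of the gene groups, and values of many single genes, are also given with a library left out.

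The E-box CACGTG was searched in the RefSeq promoter windows (GRCm38.p6, 250 bases before to 50 bases after an annotated start). The motif reads alike on both strands. Of the 35 listed genes with a window, Noc2l included, 8 held it (22.9%), against 8.09% of the 27025 genes in the promoter table. These genes act at several steps of the pathway, from MYC's partner Max and the polymerase I initiation factor Rrn3 to subunit assembly factors. Their sites are printed 5′ to 3′ on the strand of the gene, with the motif in capitals, because this is the sequence that MYC and MAX recognise.
Max (chr12:76962234-76962263, minus strand): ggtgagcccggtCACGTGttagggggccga
Rrn3, upstream site (chr16:13780472-13780501, plus strand): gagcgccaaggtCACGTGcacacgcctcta
Rrn3, site nearer the start (chr16:13780639-13780668, plus strand): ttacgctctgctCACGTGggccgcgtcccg
Nop2 (chr6:125131811-125131840, plus strand): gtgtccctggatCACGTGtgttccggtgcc
Pes1 (chr11:3963965-3963994, plus strand): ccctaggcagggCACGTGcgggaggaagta
Wdr43 (chr17:71616220-71616249, plus strand): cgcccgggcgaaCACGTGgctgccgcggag
Tsr1 (chr11:74898092-74898121, plus strand): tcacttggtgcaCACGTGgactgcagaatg
Utp20 (chr10:88826765-88826794, minus strand): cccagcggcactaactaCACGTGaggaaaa
Mybbp1a (chr11:72441347-72441376, plus strand): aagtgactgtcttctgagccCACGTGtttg
The motif begins 3 bases before the start of Max, 48 and 215 bases before that of Rrn3 and 60 bases before that of Nop2, and between 2 and 40 bases after the start in the remaining 5 genes. The 8 genes had a median log2 fold change of -0.43 between Chaf1b-deleted and control HSPCs, and the 26 matched genes whose window lacked the motif had one of -0.46. A match describes these letters only, and no binding was measured here.

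After Chaf1b deletion, 36 of the 39 genes had a fitted log2 fold change below 0, with a median of -0.44, whereas 52.5% of all 16500 genes tested were below 0 and their median was -0.03. No single gene passed the test. With edgeR's quasi-likelihood test, 0 of the 39 genes were called higher and 0 lower at the study's thresholds (1.5-fold and an adjusted p-value under 0.05), where 0.37% of all genes were called higher and 0.00606% lower, or 0.376% either way. Adjusted p-values of the 39 genes ranged from 0.279 to 0.977. At an unadjusted p under 0.05, 9 were lower (the background was 3.1%) and 1 was higher (9.15%). All of the 9 but Rrp1b had a smaller change without control replicate 1, with log2 fold changes from -0.48 for Polr1a to -0.29 for Gnl3 and Wdr12. Rrp1b went from -0.55 to -0.58. A fit that leaves out a library rests on 1 library in a group, so counts at that p are not compared. Other tests called more of all genes but 0 of the 39. edgeR's exact test called 3.25% of all genes higher and 0.224% lower, its likelihood ratio test 3.53% and 0.242%, and DESeq2 2.86% and 0.206%. Counting both directions, 9, 9 and 10 of the 39 had an unadjusted p under 0.05 in these tests. The share of all genes at that p was not taken for them. By fitted fold alone, 4 of the 39 genes were at least 1.5-fold lower (8.79% of all genes) and 1 was at least 1.5-fold higher (15.8%). In 27 genes both deleted libraries lay under both controls in CPM, a pattern found in 22.9% of all genes, and in 1 gene, Mycn, both lay above (21.4% of all genes). In 11 genes the groups overlapped. The separation was narrow in many genes: 18, 20 and 23 genes lay lower without overlap once the libraries were scaled by TMM, DESeq2 or upper-quartile factors. The share of all genes was taken in CPM only, so these counts have no background beside them. In bulk RNA, fewer cells of a type and less RNA per cell cannot be told apart.

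**Figure D1:**
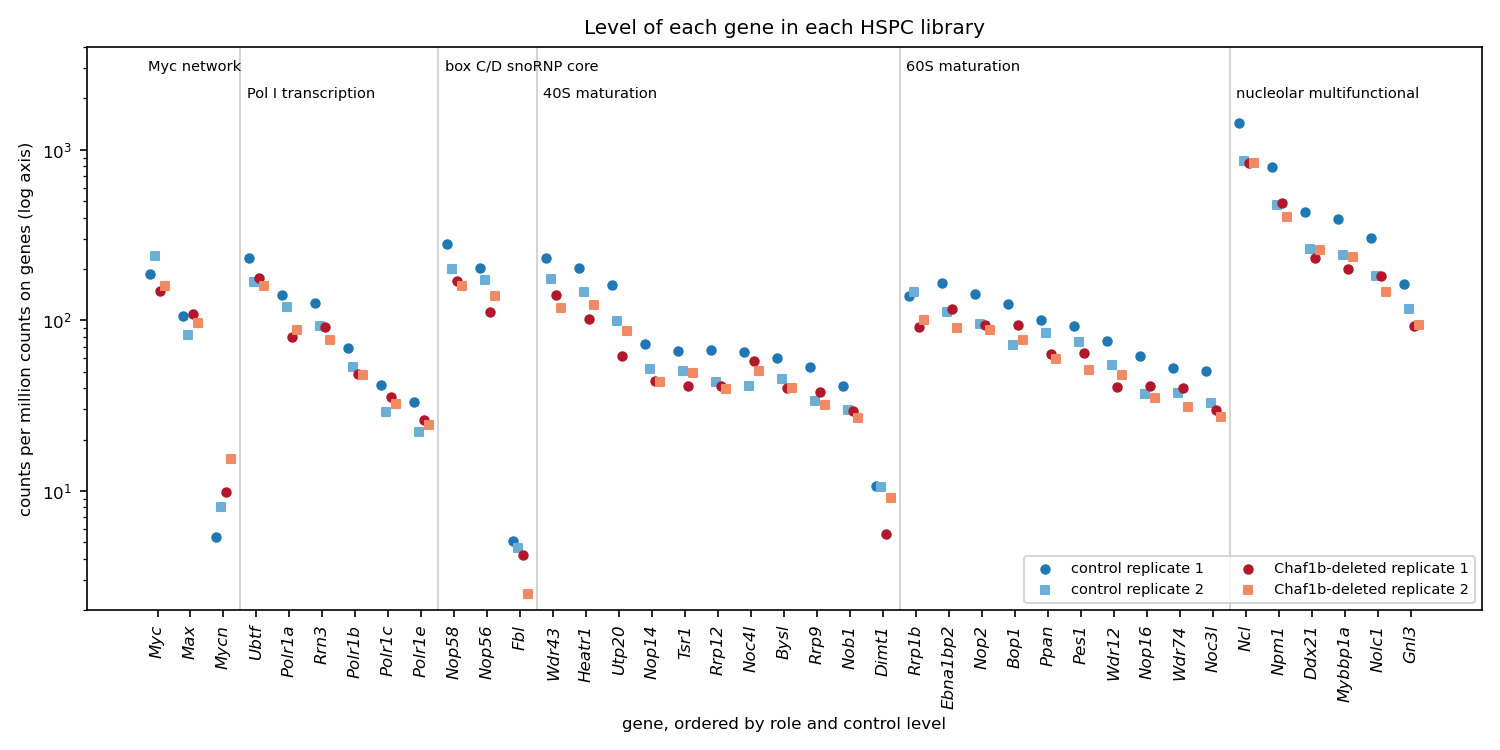
Level of the 39 genes in each of the 4 HSPC libraries, in CPM on a log axis, 1 point per library, ordered by role. Control replicate 1 is the highest library for most genes, whereas control replicate 2 lies near the Chaf1b-deleted libraries.

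The 2 controls differed from each other by about as much as the groups did. Control replicate 1 was above control replicate 2 in 36 of the 39 genes, with a median log2 ratio of 0.47 in CPM. This gap between controls was larger than the fitted change between groups in 23 genes. Summed over the 39 genes, the libraries had 6979 and 4804 CPM in control replicates 1 and 2, and 4315 and 4195 CPM after deletion. In these sums control replicate 1 therefore stands high, and the other control lies between it and the deleted libraries. Without control replicate 1 the median log2 fold change was -0.11, with 30 of 39 genes below 0 (48.7% of all genes), and without control replicate 2 it was -0.66, with 38 below 0. It was -0.54 without Chaf1b-deleted replicate 1, the library with high interferon-stimulated genes, and -0.27 without Chaf1b-deleted replicate 2. Each such fit assumes that the lone library of a group varies like those of the other group, and each called 0 of the 39 genes. After TMM scaling, the median difference of Chaf1b-deleted replicate 1 from control replicate 2 was 0.01 on the log2 scale, with 18 genes lower and 21 higher. That of Chaf1b-deleted replicate 2 from control replicate 2 was -0.26, with 33 genes lower and 6 higher. Control replicate 1 is also the library with the high share of olfactory receptor genes, and the part of that difference in these results was not tested.

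**Figure D2:**
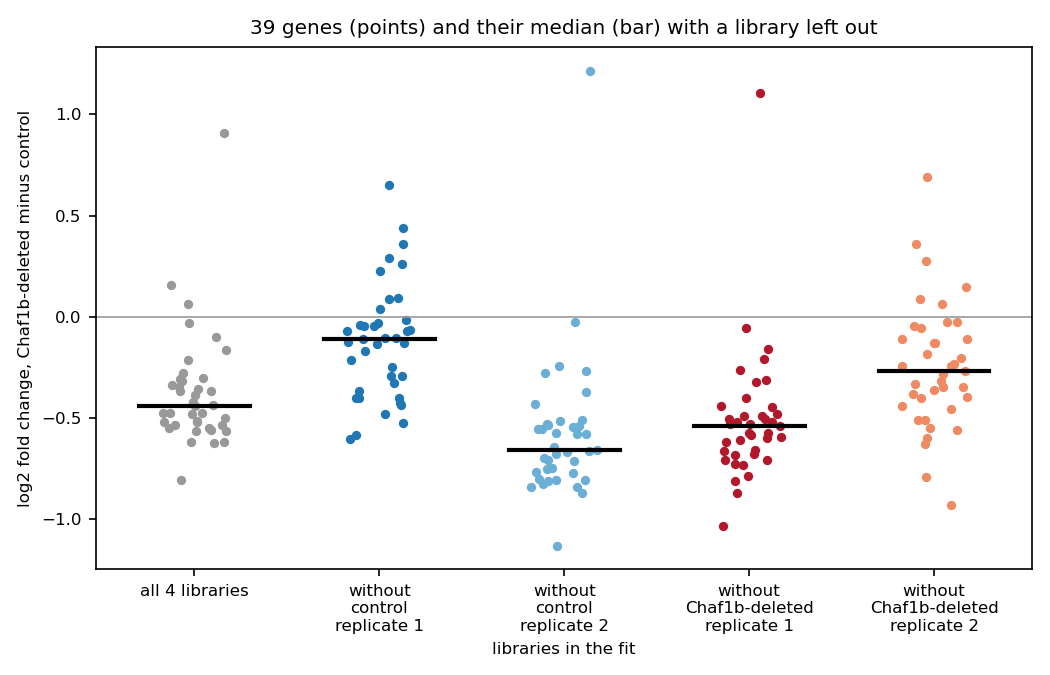
Fitted log2 fold change (Chaf1b-deleted minus control) of the 39 genes, 1 point per gene with a bar at the median, for all 4 libraries and with each library left out. The median moves from -0.44 to -0.11 without control replicate 1 and to -0.66 without control replicate 2.

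In 30 of the 39 genes the log2 fold change stayed below 0 in all 4 fits that left out a library. Mycn stayed above 0 in all 4. The remaining 8 genes, Max, Polr1c, Polr1e, Ubtf, Rrp9, Noc4l, Bop1 and Nop16, changed sign in at least 1 of these fits. The share of all genes that kept their sign was not taken, and these fits share libraries.

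The Myc network genes did not share a direction. Myc (ENSMUSG00000022346, chromosome 15 of mm9 from 61816946 to 61821929) had 186 CPM (95% Wilson interval 181 to 192) and 239 CPM (233 to 245) in the controls, and 148 CPM (143 to 153) and 160 CPM (154 to 166) after deletion. These intervals cover counting error only. Both deleted libraries lay under both controls, with means of 154 ± 8.28 against 213 ± 37.3 CPM (SD, n = 2 each). The log2 fold change was -0.44 with a standard error (SE) of 0.21 (adjusted p = 0.476, edgeR's quasi-likelihood test), and ranged from -0.61 to -0.27 with each library left out, the latter without control replicate 2. Myc was among the 3 genes in which control replicate 2 was the higher control, the others being Mycn and Rrp1b.

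Mycn (ENSMUSG00000037169, chromosome 12 from 12942902 to 12948720), the paralog of Myc known from stem cells and the embryonic nervous system, was the least expressed of the 39 genes per length. Its 4 libraries held 122 and 205 counts in control and 232 and 282 after deletion, or 5.37 and 8.07 against 9.86 and 15.3 CPM. Both deleted libraries were above both controls, although Chaf1b-deleted replicate 1 was close to control replicate 2. The log2 fold change was 0.91, with a standard error of 0.35 (adjusted p = 0.340, same test), and between 0.65 and 1.22 with each library left out. Per exonic kilobase, Myc was 42.1 and 35.9 times the level of Mycn in the controls and 18.2 and 12.7 times after deletion. Max (ENSMUSG00000059436, chromosome 12 from 78038256 to 78063235), the obligate partner of both, had 106 and 82.1 CPM in control and 110 and 95.9 CPM after deletion. Its groups overlapped, and its log2 fold change of 0.16 (SE 0.24, adjusted p = 0.841) was within the spread between libraries.

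Of 13 further genes of the MYC, MAX and MLX network, 0 passed the quasi-likelihood test. At an unadjusted p under 0.05, 2 were higher (9.15% of all genes) and 0 lower (3.1%). The 2 genes were singled out after their values were seen. Mxd1, which encodes a MAX partner that opposes MYC, had 291 and 275 CPM in control and 687 and 549 CPM after deletion. The groups lay far apart, with a log2 fold change of 1.16 (SE 0.26). Mxd1 did not pass the quasi-likelihood test of edgeR (adjusted p = 0.130) but passed its exact test (0.0037) and DESeq2 (0.0012), and its adjusted p ranged from 0.0012 to 0.423 over all alternatives. Per exonic kilobase, Myc was 1.10 and 1.49 times the level of Mxd1 in the controls and 0.37 and 0.50 times after deletion. Mycl1, a further MYC paralog, was scarce, with 0.22 and 0.354 CPM in control and 1.23 and 1.35 CPM after deletion (log2 fold change 2.17, SE 0.61, adjusted p = 0.212). The MAX partners Mxi1, Mxd3, Mxd4 and Mnt had log2 fold changes from 0.16 to 0.44. For Mnt, Mxd3 and Mxd4 both deleted libraries lay above both controls in CPM. In 3 genes, Mlx (-0.52) and the ATPase genes Ruvbl1 (-0.61) and Ruvbl2 (-0.38), both lay below, and Ruvbl1 went to -0.11 without control replicate 1. Over the 13 genes, 6 were below 0 and the median was 0.05. In CPM, 5 were higher without overlap (21.4% of all genes) and 3 were lower (22.9%). Mga, a very large MAX-binding protein, split the deleted libraries, with 135 CPM in replicate 1 and 268 CPM in replicate 2, against 250 and 253 CPM in the controls.

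**Figure D3:**
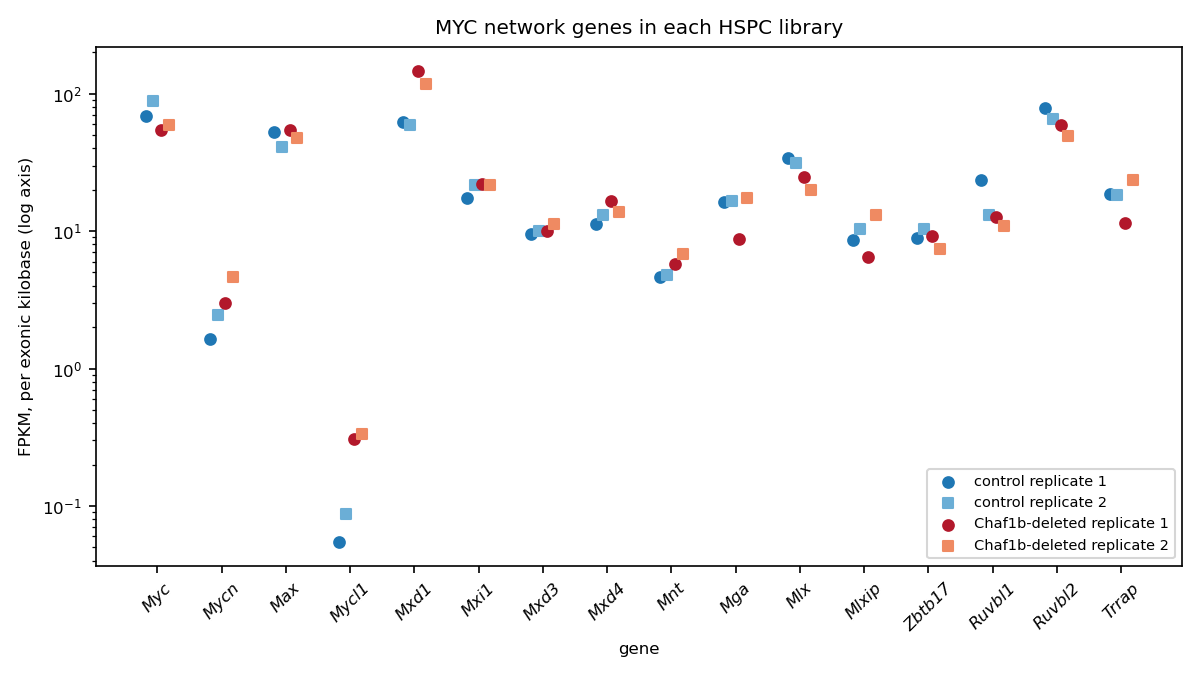
Level of Myc, Mycn, Max and 13 further MYC network genes in each of the 4 HSPC libraries, as FPKM (CPM per exonic kilobase) on a log axis. Mxd1 and Mycl1 are higher in both Chaf1b-deleted libraries than in both controls, and Myc is lower.

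All 6 genes of RNA polymerase I transcription had log2 fold changes below 0, from -0.62 to -0.03, with a median of -0.27. Polr1a (chromosome 6 from 71859047 to 71929350) encodes the largest subunit of the polymerase. It had 142 and 119 CPM in control and 80.0 and 87.2 CPM after deletion, so that the groups were separated by more than either differed within. With a log2 fold change of -0.62 (SE 0.21), it had the lowest adjusted p-value of the 39 genes, 0.279 in the quasi-likelihood test, and ranged from -0.75 to -0.48 with each library left out. Rrn3, which recruits the polymerase to the promoter, had 127 and 92.4 CPM in control and 91.0 and 76.2 CPM after deletion (log2 fold change -0.36). For Polr1b, the second-largest subunit, the value was -0.32. Ubtf, the upstream binding factor of ribosomal DNA (-0.21), Polr1e (-0.10) and Polr1c (-0.03), the last shared with RNA polymerase III, overlapped between the groups. The median of the 6 genes was -0.03 without control replicate 1 and -0.08 without Chaf1b-deleted replicate 2. Rrn3 and Polr1b went to -0.10 and -0.11 without control replicate 1.

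Nop58, Nop56 and Fbl encode 3 of the proteins of the box C/D snoRNP core, which guides methylation of ribosomal RNA. For all 3 genes the deleted libraries lay under the lower control, a pattern found in 22.9% of all genes. Nop58 (chromosome 1 from 59741853 to 59768968) had 279 and 200 CPM in control and 170 and 158 CPM after deletion, a log2 fold change of -0.52 (SE 0.25, adjusted p = 0.472, same test). Its value was -0.25 without control replicate 1. Nop56 (chromosome 2 from 130100166 to 130105049) had 202 and 173 CPM in control and 112 and 140 CPM after deletion (-0.56, SE 0.21, adjusted p = 0.325). Exons of Nop56 overlap 3 small nucleolar RNA genes and the opposite-strand gene Idh3b over 6.03% of their bases, and 22.1% of their stretches of 31 bases occur elsewhere in the genome. Fbl, the methyltransferase fibrillarin, had only 115, 117, 99 and 46 counts in control replicates 1 and 2 and deleted replicates 1 and 2. Of its exonic stretches, 89.3% occur elsewhere in the genome, and reads from such sequence align to more than 1 place, so its level and its log2 fold change of -0.47 (SE 0.45) are uncertain. Without Chaf1b-deleted replicate 2, which had the 46 counts, the value of Fbl was -0.06, and without Chaf1b-deleted replicate 1 it was -1.04. The median of the 3 genes was -0.52, and it was -0.40 without control replicate 1.

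Among the 11 genes of small-subunit maturation, 10 had log2 fold changes below 0, and 9 were lower without overlap in CPM (22.9% of all genes). The median was -0.42, and it was -0.14 without control replicate 1. Utp20 (chromosome 10 from 88209352 to 88289559), a large scaffold of the small-subunit processome, had 161 and 98.8 CPM in control and 61.8 and 86.0 CPM after deletion. The fitted log2 change, -0.81 (SE 0.28, adjusted p = 0.294), was the furthest below 0 of the 39 genes, and it was 1.75-fold lower. Control replicate 2 and deleted replicate 2 were nevertheless close, and without control replicate 1 the value was -0.40. Wdr43 (chromosome 17 from 71965555 to 72008371), a processome subunit, had 232 and 175 CPM in control and 140 and 118 CPM after deletion (log2 fold change -0.62, SE 0.25, adjusted p = 0.367). Heatr1, which also acts in polymerase I transcription, had 201 and 147 CPM against 102 and 122 CPM (-0.62, SE 0.23, adjusted p = 0.326). In both genes the deleted libraries lay under the lower control. The values of Wdr43 and Heatr1 were -0.40 and -0.37 without control replicate 1.

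Dimt1, the dimethyltransferase of small-subunit ribosomal RNA, had 10.6 CPM in both controls and 5.57 and 9.04 CPM after deletion (-0.54, SE 0.33), and -0.31 without Chaf1b-deleted replicate 1. Of its exonic bases, 48.3% overlap Kif2a on the opposite strand and 57.1% of its stretches occur elsewhere, so its counts are less certain. Nop14, Rrp12, Bysl, Tsr1, Nob1 and the U3 snoRNP protein gene Rrp9 had values from -0.48 to -0.28. Noc4l, a partner of NOP14, was the exception with 64.9 and 41.0 CPM in control and 58.1 and 50.2 CPM after deletion (0.06), where the deleted libraries lay between the controls.

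All 10 matched genes of large-subunit maturation had log2 fold changes below 0, and 6 were lower without overlap in CPM (22.9% of all genes). The median was -0.44, and it was -0.12 without control replicate 1 and -0.23 without Chaf1b-deleted replicate 2. Rrp1b (chromosome 17 from 32173045 to 32199810), a nucleolar protein that also binds chromatin, had the narrowest range of the 39 genes when libraries were left out. It had 139 and 146 CPM in control and 91.0 and 101 CPM after deletion, a log2 fold change of -0.55 (SE 0.19, adjusted p = 0.300) with values from -0.58 to -0.51 in those fits. Ppan (chromosome 9 from 20692619 to 20696622), an assembly factor of the large subunit, had 101 and 84.7 CPM in control and 63.7 and 59.3 CPM after deletion (-0.56, SE 0.22, adjusted p = 0.353).

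PES1, BOP1 and WDR12 form the PeBoW complex, which processes the ribosomal RNA of the large subunit, and their genes differed in size of change. Wdr12 had 75.6 and 54.9 CPM in control and 40.4 and 47.8 CPM after deletion (-0.55, SE 0.23, adjusted p = 0.399), and its value was -0.29 without control replicate 1. Pes1 had 93.0 and 74.4 CPM against 64.0 and 51.3 CPM (-0.50), with 28.3% of its stretches found elsewhere in the genome. Its value was -0.33 without control replicate 1 and -0.25 without Chaf1b-deleted replicate 2. Bop1 had 124 and 71.7 CPM in control and 94.0 and 76.4 CPM after deletion (-0.16). In Bop1 the deleted libraries lay between the controls, and without control replicate 1 the sign turned to 0.29. Noc3l, Ebna1bp2, the RNA methyltransferase gene Nop2, Nop16 and Wdr74 had log2 fold changes from -0.52 to -0.30, and Ebna1bp2, Nop16 and Wdr74 overlapped between groups.

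The 6 multifunctional nucleolar genes summed to 3517 and 2139 CPM in control and to 2026 and 1974 CPM after deletion, more than any other role group in each library. All 6 had log2 fold changes below 0. Ncl (chromosome 1 from 88241294 to 88256030), the nucleolar RNA-binding protein nucleolin, had 1434 and 863 CPM in control and 833 and 837 CPM after deletion. The deleted libraries were nearly equal and just under control replicate 2, and the log2 fold change of -0.44 (SE 0.31, adjusted p = 0.640) became -0.02 without control replicate 1. Npm1 (chromosome 11 from 33052287 to 33063206), the nucleolar chaperone nucleophosmin, had 794 and 475 CPM in control and 488 and 404 CPM after deletion (-0.47, SE 0.32, adjusted p = 0.612), and -0.05 without control replicate 1. Its groups overlapped, and 42.9% of its exonic stretches occur elsewhere in the genome. Gnl3, the nucleolar GTPase nucleostemin, had 164 and 117 CPM in control and 92.4 and 93.6 CPM after deletion (-0.57, SE 0.24, adjusted p = 0.391), and -0.29 without control replicate 1. Nolc1, a snoRNP chaperone, had 305 and 182 CPM in control and 181 and 147 CPM after deletion (-0.54, adjusted p = 0.547), and -0.11 without control replicate 1. In Nolc1 the lower control and the higher deleted library were almost equal. The RNA helicase gene Ddx21 (-0.48) and Mybbp1a, which encodes a binding protein of MYB (-0.52), each had a control replicate 2 only slightly above the higher deleted library. Without control replicate 1 the median of these 6 genes went from -0.50 to -0.09.

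**Figure D4:**
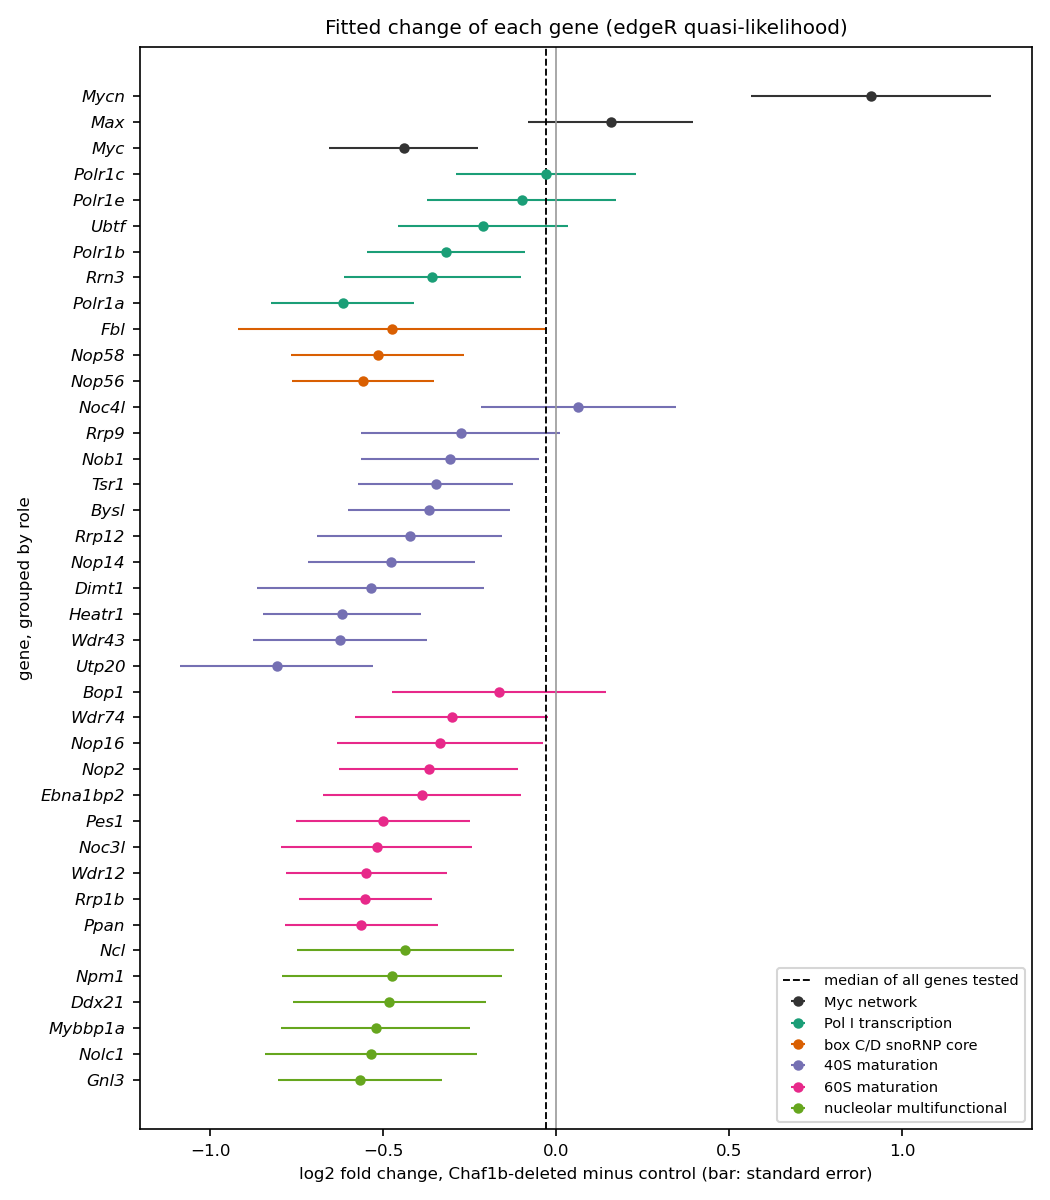
Fitted log2 fold change of each of the 39 genes between Chaf1b-deleted and control HSPCs, with its standard error as a bar, coloured by role, and a dashed line at the median of all genes tested (-0.03). Mycn lies furthest to the right at 0.91 and Utp20 furthest to the left at -0.81, and most genes lie between -0.65 and -0.25.

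Per exonic kilobase, levels in control HSPCs ranged from 2.04 FPKM for Mycn to 238 FPKM for Npm1, with a median of 26.8. After Npm1 (238 ± 84.7 FPKM) came Ncl (139 ± 48.8), Nop58 (92.6 ± 21.6), Myc (78.3 ± 13.7), Gnl3 (74.4 ± 17.7) and Ddx21 (73.0 ± 25.1), each as SD over n = 2. From Nop58 downwards these neighbours differed by less than the spread between the controls. Polr1e (7.09), Dimt1 (4.17) and Fbl (4.16) stood at the low end above Mycn. The places of Dimt1 and Fbl are uncertain, because 57.1% and 89.3% of their exonic stretches occur elsewhere in the genome. After deletion Npm1 (167 ± 22.1 FPKM) and Ncl (101 ± 0.30) stayed highest, and Myc was at 56.7 ± 3.05. Together the 39 genes took between 0.42% and 0.70% of the counts on genes.

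The rest of the pathway was described with 96 matched ribosome biogenesis genes outside the list. Of these, 88 had log2 fold changes below 0 and the median was -0.32, with 0 called in either direction. At an unadjusted p under 0.05, 7 were lower (3.1% of all genes) and 0 higher (9.15%). Without control replicate 1 their median was -0.12, and 64 of 96 were below 0. It was -0.18 without Chaf1b-deleted replicate 2, and -0.51 and -0.49 without control replicate 2 and Chaf1b-deleted replicate 1. By step, the median was -0.18 over 10 genes of polymerase I transcription, -0.32 over 36 genes of the small subunit and -0.34 over 40 genes of the large subunit. It was -0.30 over a mixed list of 10 snoRNP genes. These belong to box H/ACA snoRNPs, which guide pseudouridylation, or to other snoRNPs and their assembly. Mphosph10, a component of the small-subunit processome and the furthest below 0 of the 96, had 141 and 127 CPM in control and 80.9 and 69.3 CPM after deletion (log2 fold change -0.80, SE 0.23, adjusted p = 0.212).

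Of 20 MYC targets outside ribosome biogenesis, 16 were below 0 with a median of -0.22 and 0 were called. The median was 0.12 with 6 below 0 without control replicate 1, -0.05 without Chaf1b-deleted replicate 2, -0.47 without control replicate 2 and -0.37 without Chaf1b-deleted replicate 1. The transferrin receptor gene Tfrc had 730 and 708 CPM in control and 416 and 459 CPM after deletion (log2 fold change -0.69, adjusted p = 0.266), and the helicase gene Eif4a1 177 and 170 against 120 and 126 CPM (-0.48, adjusted p = 0.383). In both genes the controls were close together and above both deleted libraries. Over the 20 targets, 5 were lower without overlap in CPM (22.9% of all genes), 0 were higher (21.4%) and 15 overlapped. Odc1, Cdk4, Nme1 and Ptma, often used as MYC targets, had values from -0.02 to 0.16, with overlapping groups.

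The 8 proliferation markers summed to 5584 and 5793 CPM in control and to 3029 and 3854 CPM after deletion. The controls were close to each other. In CPM, 6 of the 8 genes were lower without overlap (22.9% of all genes) and 1, Rrm2, was higher (21.4%). The median log2 fold change over all 8 was -0.37, and it was -0.24 without control replicate 1 and -0.14 without Chaf1b-deleted replicate 2. Mki67, a marker of cycling cells, had 2943 and 3193 CPM against 1002 and 1860 CPM (log2 fold change -1.10, adjusted p = 0.229). Summed neutrophil markers had 45144 and 52642 CPM in control and 65457 and 49227 CPM after deletion. Of these 8 genes, 7 had log2 fold changes above 0 and 1 below, with a median of 0.63. Only Cxcr2 among them passed the test (log2 fold change 1.52). Macrophage (165 to 507 CPM), mast cell (361 to 744), erythroid (26.1 to 51.8) and lymphoid markers (5.72 to 11.4) had summed levels that are given as ranges over the 4 libraries. Megakaryocyte markers summed to at most 101 CPM in control and to 153 and 267 CPM after deletion. Dendritic cell markers summed to 139 and 665 CPM in control and 854 and 355 CPM after deletion. Among these, 1 of 7 passed the test, Flt3 (log2 fold change 2.09), which the study also names with progenitor genes. No marker was at 0 in all 4 libraries, while 1 lymphoid marker was at 0 in 3 libraries and 1 mast cell marker in control replicate 2. The part of these differences in the levels of Myc and ribosome biogenesis genes was not tested.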

How the data were processed

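RNA of 4 HSPC libraries was measured, 2 control and 2 Chaf1b-deleted, with groups and replicate numbers from the titles in the labels. The authors aligned reads to mm9 with STAR and counted them per gene with HTSeq, and the deposited values are raw counts, one library per table. The annotation release and strand setting are not given in the sources used here. Of the 43629 identifiers, 33068 were named from NCBIM37 (Ensembl 65), whose exons gave lengths and overlaps, and 10561 were not. Reads outside genes (35.8% to 48.3% of uniquely aligned reads) stayed out of library sizes.

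CPM used the total counted on genes, and FPKM also the exonic length. The groups were compared with edgeR 4.0.16 (glmQLFit with its legacy method, glmQLFTest, TMM factors from 0.925 to 1.06, filterByExpr with a minimum count of 10) in R 4.3.3, with Benjamini-Hochberg adjustment over 16500 genes. A call needed 1.5-fold and an adjusted p under 0.05. Fold changes and standard errors are from this fit. The method was tested on simulated data whose changes were larger than any fitted for the members. That test does not show whether changes of the members' size would be called. Libraries of a group differed beyond sampling noise (chi-square per degree of freedom 39.1 and 59.7). A share of 3 counts, the floor, was 0.118 to 0.162 CPM, and Wilson half-widths of a gene's CPM ranged from 1.08% to 29.2% (counting error only, as reads have no molecular identifiers). DESeq2 1.42.0 was an alternative.

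Members and lists were chosen with earlier results of these data known. Values are given for Myc, Mycn, Max, Ncl, Npm1, Fbl, the 12 members with the largest absolute change, those with an unadjusted p under 0.05, and Chaf1b. Others were named to describe their role group. Mxd1, Mycl1, Mphosph10, Mga, Tfrc, Eif4a1 and Mki67 were chosen after their values were seen. RefSeq windows gave promoters. Taf1a and Riok2 of the pathway lists were not matched.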

Additional observations from a re-analysis of the deposited data

How the results depend on the processing

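The counts of 0 called members in each direction held under every alternative run, namely other scalings, filters, tests, thresholds, the replicate block and each library left out. Of 390 member results under alternatives that kept all libraries, 1 changed sign (Polr1c, 0.0095 without a low-count filter, a setting that moved the median of all genes to -0.13) and 0 came past the threshold. The median over members was between -0.47 and -0.42 under these alternatives, and from -0.66 to -0.11 with each library left out. Under 3 other scalings, 18 to 23 members lay lower without overlap, against 27 in CPM, and 1 lay higher. The share of all genes was taken in CPM only (22.9% lower and 21.4% higher). With each library left out, the range was -0.056 to 0.36 for Max, -0.28 to 0.26 for Polr1c, -0.37 to 0.22 for Polr1e, -0.43 to 0.039 for Ubtf, -0.58 to 0.094 for Rrp9, -0.24 to 0.44 for Noc4l, -0.52 to 0.29 for Bop1 and -0.67 to 0.085 for Nop16. Calls among the other pathway genes went from 0 to 2 higher with edgeR's exact test, 2 with its likelihood ratio test, 2 without a low-count filter (Mxd1 and Mycl1 each time), 1 with DESeq2 and 0 to 1 with each library left out, the 1 being Mxd1 without Chaf1b-deleted replicate 2; the cause was not tested. With CANNTG in place of CACGTG, 22 of the 35 listed genes with a window held the motif, against 8. That is 62.9%, below the 75.0% of all genes. Over all genes tested, same-numbered libraries did not deviate together (correlation 0.013), so the numbers were taken as names. Among the members, replicate 1 was the higher library of its group in most genes after TMM scaling. It was higher in 36 of 39 in control (median log2 difference 0.50) and in 31 after deletion (0.29). With the replicate block, 0 members were called and their median was -0.43. The gap between the 2 controls was larger than the fitted change in 23 of the 39 members and smaller in 16.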
